A study of Mus musculus with 10 samples.

Results

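Prdx2 and Gsta4 are the only genes of a 51-gene antioxidant list that the array files name, and both were measured here in RNA from extracellular vesicles of mouse brain. They were found through the mouse RefSeq transcript attached to their probes (NM_011563 for Prdx2 and NM_010357 for Gsta4), and they are 2 of the 46 named genes among 60823 non-control probes. Each gene has 1 probe, printed as 10 spots on every array. The vesicles came from adult male C57BL/6J mice that had breathed either ethanol vapor (chronic intermittent ethanol, CIE, an inhalation model of alcohol dependence) or room air (Control). Both exposures ran for 8 h per day, 5 days per week, over 4 weeks, and brains were collected after the final exposure day. There were 5 Control and 5 CIE arrays, numbered 1 to 10 across both groups as in the sample titles. Whether a sample held vesicles of 1 brain or of several is not given in the labels, so the p-values below speak only for the scatter among these samples, and that scatter may be technical. In vesicle RNA of a whole organ, fewer vesicles of one cell type and fewer transcript copies per vesicle cannot be told apart.

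Prdx2 encodes peroxiredoxin 2, a cytosolic thiol peroxidase that reduces hydrogen peroxide and is itself recycled by thioredoxin. It is abundant in neurons and in red blood cells. Gsta4 encodes an alpha-class glutathione S-transferase that joins glutathione to hydroxynonenal, a reactive aldehyde formed when membrane lipids are peroxidised. The first enzyme thus acts on the oxidant and the second on one of its lipid products, and ethanol oxidation is a known source of both. The comparison asks whether the vesicle content of either transcript differed after ethanol.

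The 75th percentile of signal, which sets the scale of each array, lay between 69.7 and 192 intensity units. Slides were inferred from the scan identifier in the headers, since the labels name none, so slide here means arrays that share this identifier. By this rule 8 arrays shared slide 1, and slide 2 held CIE 8 and CIE 10 only. Control 7 and CIE 8 stood apart on a control probe for human GAPDH (2.80 and 3.49 log2 units above the percentile, against at most 0.47 on the other arrays), so the main results for Prdx2 and Gsta4 are also given without them. The signal of mouse GAPDH at its 3' end over that at its 5' end, which can rise as RNA degrades, was 0.90 ± 0.29 log2 units in CIE and 0.58 ± 0.32 in Control (SD, n = 5 each, exact two-sided permutation p = 0.143, adjusted to 0.230 over 3 such array measures). Without Control 7 and CIE 8 this CIE excess was 0.38 (exact permutation p = 0.143), and within slide 1 it was 0.45 (exact permutation p = 0.0714).

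Prdx2 gave a bright and well-measured signal on every array. In Control its mean processed intensity was 1527 on array 1, 1042 on array 4, 842 on array 6, 702 on array 7 and 2328 on array 9. In CIE it was 2111 on array 2, 771 on array 3, 744 on array 5, 426 on array 8 and 1930.0 on array 10. CIE 8 was the dimmest of the 10 arrays and Control 9 the brightest, 5.47-fold apart. All 100 spots were well above background, and the median spot signal stood 34.6 to 155 times over the local background.

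Part of that range belonged to the arrays and not to Prdx2. Once each array's log2 intensities were centred on its 75th percentile, the range of Prdx2 narrowed to 3.31-fold. The centred log2 level in Control was 3.76 on array 1, 3.12 on array 4, 3.34 on array 6, 2.94 on array 7 and 3.60 on array 9. In CIE it was 4.34 on array 2, 3.31 on array 3, 3.36 on array 5, 2.61 on array 8 and 3.81 on array 10. The highest and the lowest value were both in CIE, with 2 CIE arrays above every Control array, 1 below every Control array and 2 among them.

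Gsta4 was dimmer but was also well above background in all 100 spots, at 4.43 to 12.6 times the local background. Its mean intensity in Control was 87.8 on array 1, 81.7 on array 4, 65.2 on array 6, 68.3 on array 7 and 178 on array 9. In CIE it was 114 on array 2, 44.6 on array 3, 49.4 on array 5, 70.1 on array 8 and 132 on array 10. CIE 3 was the dimmest array and Control 9 again the brightest, 3.99-fold apart.

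**Figure D1:**
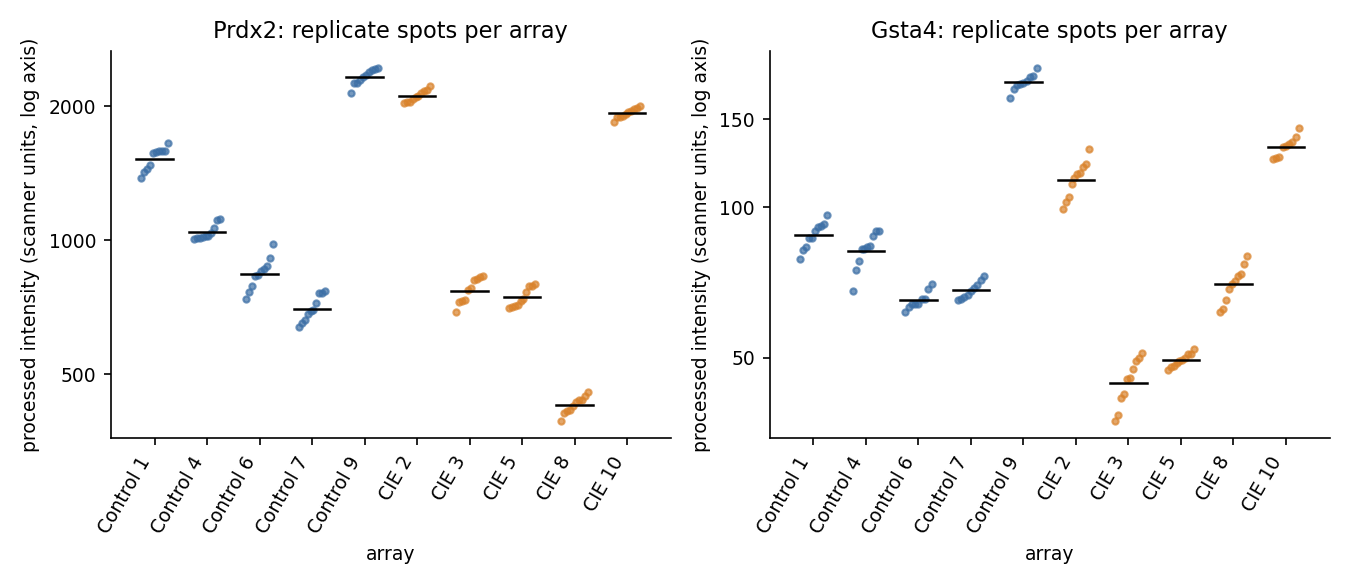
Processed intensity (scanner units, log axis) of each replicate spot of the Prdx2 probe (left) and the Gsta4 probe (right) on the 10 arrays, Control in blue and CIE in orange, with a black line at the geometric mean. Spots of 1 array lie close together, whereas the arrays span 5.47-fold for Prdx2 and 3.99-fold for Gsta4.

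After centring, Gsta4 spanned 1.89-fold. The centred log2 level in Control was -0.36 on array 1, -0.56 on array 4, -0.35 on array 6, -0.43 on array 7 and -0.11 on array 9. In CIE it was 0.12 on array 2, -0.80 on array 3, -0.56 on array 5, 0.01 on array 8 and -0.06 on array 10. Here 3 CIE arrays exceeded every Control array, 1 lay below every Control array and 1 fell among them.

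Replicate spots give the precision of 1 array's value. The standard deviation among the spots of 1 array had a median of 0.07 log2 units for Prdx2 and 0.08 for Gsta4. The resulting standard error of an array's mean was at most 0.04 for Prdx2 and 0.05 for Gsta4. Between arrays of the same group the standard deviation was 0.51 for Prdx2 and 0.30 for Gsta4, which is 13.5 and 6.12 times the largest of those standard errors. Spots of 1 array share its labelling, hybridisation and scan, so they do not measure technical variation between arrays.

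Neither gene differed between the groups beyond the spread between samples. Prdx2 was at 3.48 ± 0.64 in CIE and 3.35 ± 0.34 in Control (centred log2, SD, n = 5 each), so the CIE mean was 0.14 higher, with a standard error of 0.31 (limma adjusted p = 0.989). Its 95% interval ran from -0.55 to 0.82, or from 0.683-fold to 1.77-fold. Gsta4 was at -0.26 ± 0.40 in CIE and -0.36 ± 0.16 in Control, so its CIE mean was 0.10 higher, with a standard error of 0.22 (limma adjusted p = 0.989). Its 95% interval ran from -0.39 to 0.60, or from 0.765-fold to 1.51-fold. These 2 genes were the only tested members of the antioxidant list, and 0 of them passed. In the whole fit limma called 0 of 43084 probes (0%), with 921 (2.14%) at an unadjusted p under 0.05, and an unmoderated test called 0 as well, with 1082. Prdx2 and Gsta4 were not among these, at unadjusted p-values of 0.674 and 0.649 in the same limma fit. The 2.14% is less than the share of 0.05 that well-calibrated p-values give when no probe differs. With the pairs described below as a block, 6389 probes had an unadjusted limma p under 0.05. A smaller absolute difference than that of Prdx2 was found in 32.6% of the tested probes, and a smaller one than that of Gsta4 in 25.5%. The spread within groups was smaller than that of Prdx2 in 53.6% of the probes and smaller than that of Gsta4 in 17.1%.

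**Figure D2:**
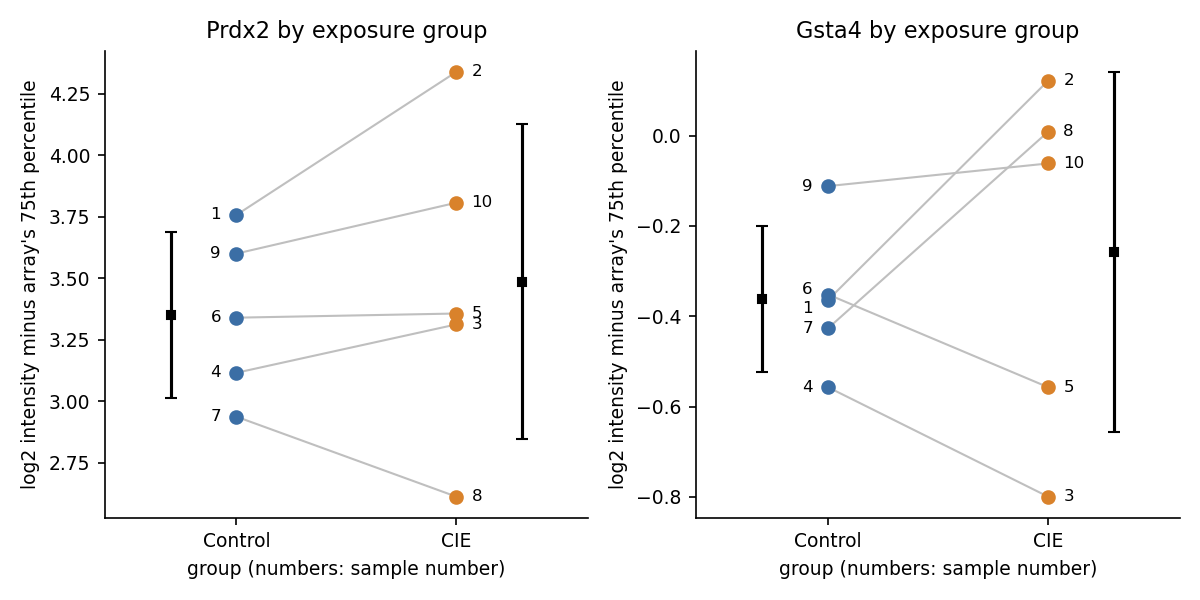
Centred log2 intensity of Prdx2 (left) and Gsta4 (right) in Control (blue) and CIE (orange), 1 point per array with its sample number, and black squares with bars for the mean ± SD (n = 5). Grey lines join each odd sample number to the next even one, and for both genes the CIE points reach above and below the Control points.

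The sign of both differences depended on single arrays or on the slide. Without CIE 2, which had the highest level of both genes, the difference was -0.08 for Prdx2 and 0.01 for Gsta4. Without CIE 8, which had the lowest Prdx2, that of Prdx2 was 0.35. Without CIE 3, which had the lowest Gsta4, that of Gsta4 was 0.24. Without Control 7 and CIE 8 together it was 0.25 for Prdx2 and 0.02 for Gsta4. With slide as a block, the Prdx2 difference was 0.32 and that of Gsta4 -0.05. Both of these equal the differences within slide 1, since slide 2 held no Control array. On intensities with no scaling both were below 0, at -0.23 for Prdx2 and -0.26 for Gsta4, where the median of all tested probes was -0.42, against -0.05 with scaling. Both genes lay above that median with and without scaling.

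**Figure D3:**
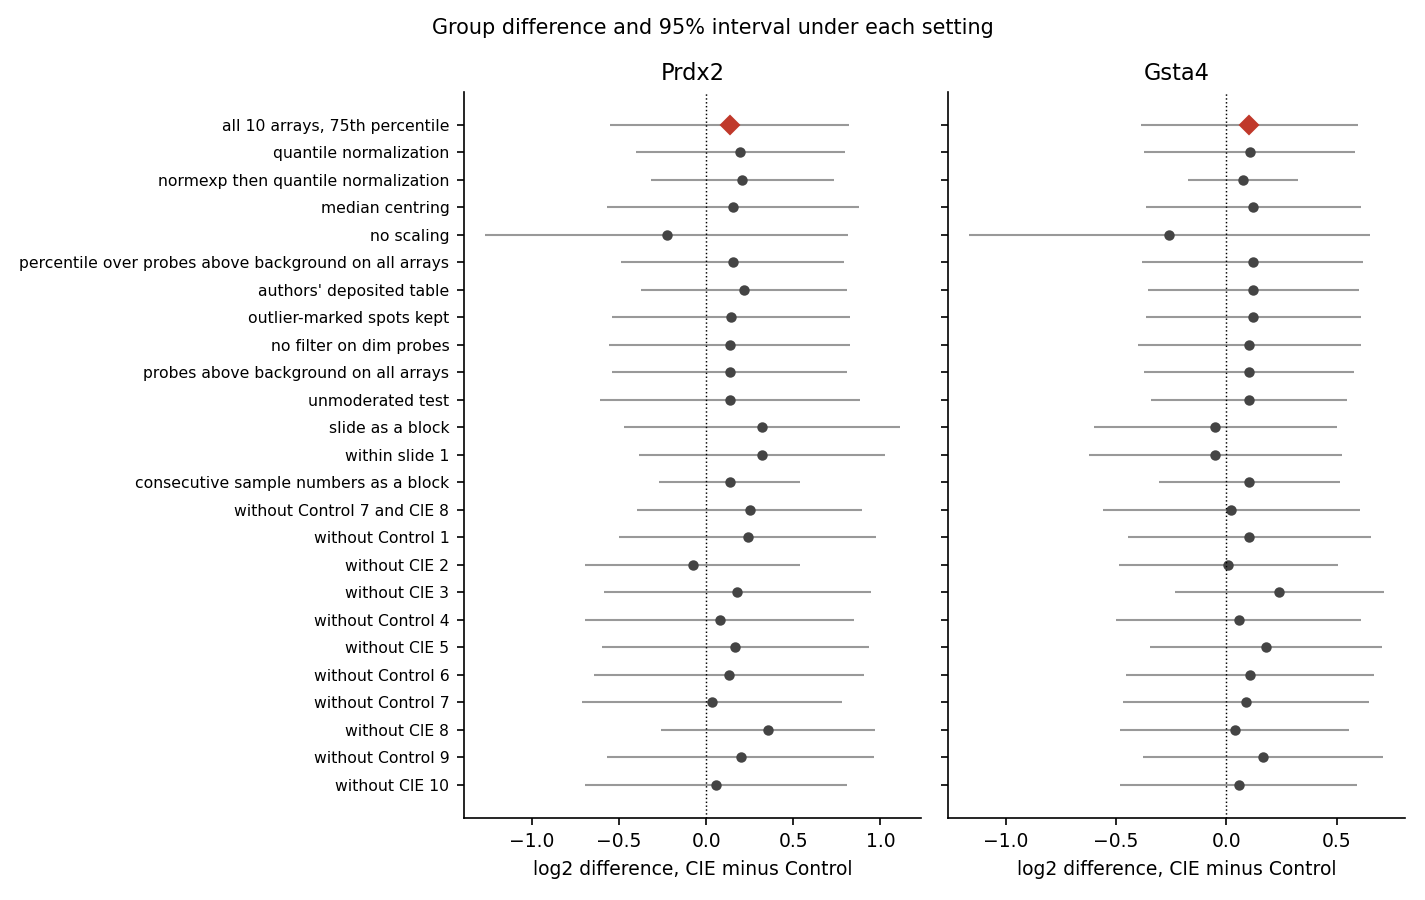
Log2 difference, CIE minus Control, of Prdx2 (left) and Gsta4 (right) with its 95% interval for all 10 arrays (red diamond) and under each other setting (grey circles). Every interval drawn includes 0, and the point for Prdx2 falls below 0 without CIE 2 and with no scaling.

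Arrays were taken in pairs of an odd sample number and the next even one, from 1 with 2 to 9 with 10. Each such pair holds a Control and a CIE array. The mean correlation across tested probes was 0.978 within these pairs against 0.942 for all other combinations, although the labels state no pairing. Set against the Control array of its pair, Prdx2 was 0.58 log2 units higher on CIE 2, 0.20 higher on CIE 3, 0.02 higher on CIE 5 and 0.21 higher on CIE 10. On CIE 8 it was lower than on Control 7, with a difference of -0.32. Prdx2 thus lay higher in CIE in 4 of these 5 pairs, a count that holds for this choice of pairs only. Gsta4 did so in 3 of 5, with differences of 0.48 for CIE 2, -0.24 for CIE 3, -0.21 for CIE 5, 0.43 for CIE 8 and 0.05 for CIE 10. The share of all tested probes with such counts was not computed. In the same pairs the GAPDH measure was higher on every CIE array, by 0.07 (CIE 8) to 0.56 (CIE 2). The 75th percentile was lower on every CIE array, with differences from -0.11 (CIE 2) to -0.63 (CIE 3). Whether Prdx2 or Gsta4 follows these measures across pairs was not tested. With these pairs as a block, the standard error of the Prdx2 difference shrank from 0.31 to 0.18, and neither gene passed (limma adjusted p = 0.741 for Prdx2 and 0.806 for Gsta4).

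The scatter of both genes was wider among CIE samples than among Control samples, by a similar amount (0.19 log2 units for Gsta4 and 0.18 for Prdx2). Only Gsta4 fell under 0.05 without adjustment, which does not show that the genes differ in this. The mean absolute deviation from the group median was 0.44 log2 units in CIE against 0.26 for Control arrays for Prdx2 (exact permutation p = 0.349, two-sided). For Gsta4 it was 0.30 in CIE, whereas Control stood at 0.10 (exact permutation p = 0.0159, 1 of 2 such tests, not adjusted). The unequal standard deviations were known before this test was chosen. A wider CIE spread was also the rule on these arrays, being found in 77.6% of the tested probes. The Gsta4 difference of 0.19 exceeded 70.9% of them and the Prdx2 difference of 0.18 exceeded 68.7%. For both genes all Control values lay between the lowest and the highest CIE value, as they did for 40.3% of the tested probes, while the reverse held for 7.12%. These shares are over all arrays, where CIE lay on slides 1 and 2 and Control on slide 1 only. In them a wider CIE spread and a difference between slides cannot be told apart. The Prdx2 difference was 0.05 without CIE 2 (exact permutation p = 0.746), 0.08 within slide 1 (exact permutation p = 0.857) and 0.14 without Control 7 and CIE 8 (exact permutation p = 0.514). The Gsta4 result rested on CIE 3 and CIE 5, since its difference in spread was 0.08 without the former (exact permutation p = 0.222) and 0.14 without the latter (exact permutation p = 0.135). Within slide 1 the Gsta4 difference was 0.20 (exact permutation p = 0.179), and without Control 7 and CIE 8 it was 0.24 (exact permutation p = 0.0571).

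Over all 10 arrays no relation between Prdx2 and Gsta4 passed the test, and its size turned on CIE 2 and CIE 8. Pearson's r was 0.36 (permutation p = 0.313) and Spearman's rho 0.41 (permutation p = 0.247), or 0.577 and 0.616 after adjustment over 5 relations. Without CIE 2 and CIE 8, the arrays farthest from the median of Prdx2, r was 0.59 (exact permutation p = 0.120, n = 8). Without Control 7 and CIE 8 it was 0.83 (exact permutation p = 0.00871, n = 8), and within slide 1 it was 0.75 (exact permutation p = 0.0362, n = 8). Leaving out CIE 8 alone gave 0.77 (exact permutation p = 0.0151), whereas leaving out CIE 2 alone gave 0.02. The values share each array's scaling.

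**Figure D4:**
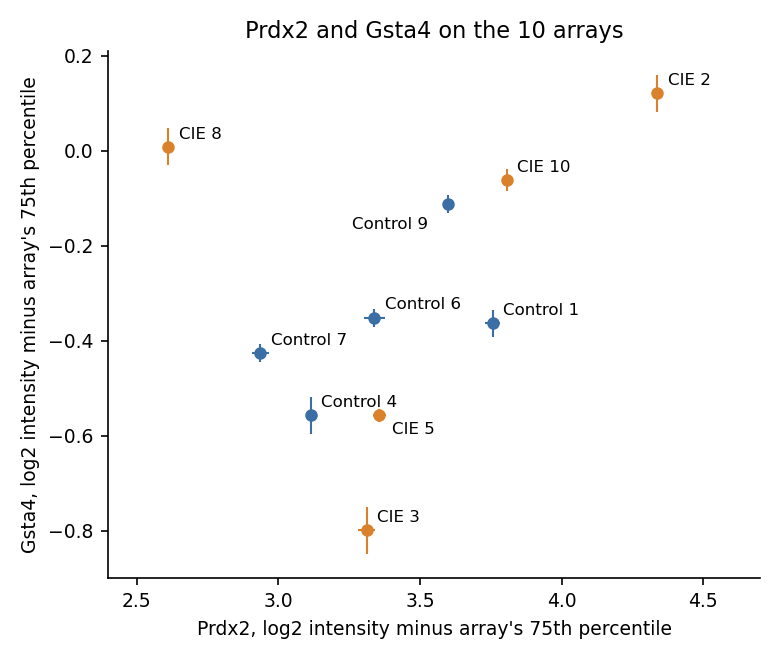
Centred log2 intensity of Prdx2 (horizontal) against Gsta4 (vertical), 1 point per array (Control blue, CIE orange), with bars for the standard error over replicate spots. CIE 8 pairs the lowest Prdx2 (2.61) with the second-highest Gsta4 (0.01), away from the other 9 arrays.

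A ratio of both genes on the same array is free of any scaling of that array. The log2 ratio of Prdx2 over Gsta4 stood at -1.12 on CIE 8 relative to its mean over all arrays, while the other arrays lay between -0.36 (Control 7) and 0.49 (CIE 2). Its group difference was 0.03 (exact permutation p = 0.984, n = 5 per group), with a standard deviation of 0.65 in CIE and 0.27 in Control. The difference was 0.37 within slide 1 (exact permutation p = 0.107), 0.23 without Control 7 and CIE 8 (exact permutation p = 0.200) and 0.32 without CIE 8 alone (exact permutation p = 0.111). The ratio was added after the values were seen.

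Among the other 42 named and tested genes, the 3 most like Prdx2 had an r of at least 0.93 over all 10 arrays, and the 3 most like Gsta4 one of at most 0.68. These likenesses are Pearson's r of centred log2 levels over 10 arrays and serve as description, since all genes share the scaling of an array. Acaa2, a thiolase of mitochondrial fatty acid oxidation, had an r of 0.98 with Prdx2. Uhrf1bp1l had one of 0.97, and Cav2, a caveolin of membrane invaginations, one of 0.93. Acaa2 was highest on CIE 2 (3.21) and lowest on CIE 8 (1.62), the same arrays as for Prdx2. Uhrf1bp1l, Cav2 and several other named genes had their extremes on those arrays too, so the match is not particular to Acaa2. Without Control 7 and CIE 8 the r of Acaa2 with Prdx2 was 0.96. Without those arrays the r of Uhrf1bp1l was 0.95 and that of Cav2 0.87. At the other end stood Actb, cytoskeletal beta-actin, with an r of -0.85, or -0.80 without those 2 arrays. Actb was highest on CIE 8 (7.10) and Control 7 (6.39), the 2 arrays with the lowest Prdx2, and lowest on CIE 2 (4.79), where Prdx2 was highest.

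Over all 10 arrays the genes closest to Gsta4 were Rab5a, a small GTPase of early endosomes, with an r of 0.68, Carhsp1, an RNA-binding protein, with 0.49, and Lhfp with 0.47. That order did not hold without Control 7 and CIE 8, where Rab5a had an r of 0.72, Carhsp1 0.77 and Lhfp 0.68. The closest to Gsta4 were then Uhrf1bp1l with 0.92, Gpi1, an enzyme of glycolysis named here after its values were seen, with 0.91, and Prdx2 itself with 0.83. In likeness to Prdx2, Gsta4 ranked 21st of 42 over all arrays and 7th without those 2. None of these 8 genes passed the test of CIE against Control, and limma adjusted p-values lay between 0.989 and 0.998.

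**Figure D5:**
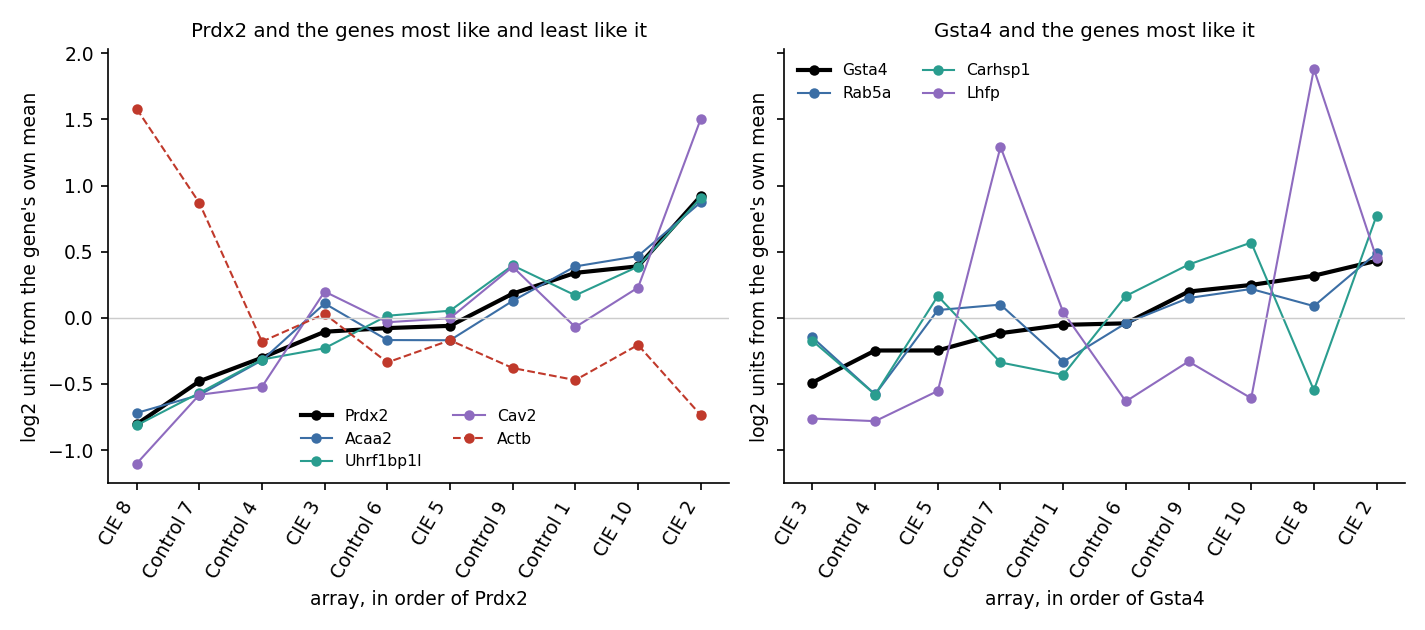
Centred log2 intensity of Prdx2 (left) and Gsta4 (right) with the 3 named genes most like each and, for Prdx2, the 1 least like it (dashed), as log2 units from each gene's own mean over the 10 arrays, which are placed in order of the member's level. Acaa2, Uhrf1bp1l and Cav2 rise along with Prdx2 and Actb runs against it, whereas the genes beside Gsta4 scatter more.

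Of 40 listed markers of brain cell types, red blood cells and vesicles, 4 were named on the array. Chgb and Gabrg1 (listed under neurons), Apoe (astrocytes) and Mbp (oligodendrocytes) were well above background on all 10 arrays. Whether each marks only the cell type it was listed under was not tested, least of all for Gabrg1. Their r with Prdx2 lay between -0.15 (Gabrg1) and 0.12 (Mbp), and with Gsta4 between -0.44 (Apoe) and 0.07 (Gabrg1). The 7 red blood cell markers, a cell type rich in Prdx2, have no named probe in these files, so the part of blood in the Prdx2 level was not tested. The GAPDH ends served as an indirect sign of RNA quality. The r between that measure and the gene was 0.0039 for Prdx2 (permutation p = 0.992) and 0.016 for Gsta4 (permutation p = 0.965), with rho of -0.18 (permutation p = 0.633) and 0.21 (permutation p = 0.559). Without Control 4 and Control 9, the arrays with GAPDH values farthest from the median, r was 0.01 for Prdx2 (exact permutation p = 0.982, n = 8) and 0.11 for Gsta4 (exact permutation p = 0.816, n = 8). The 75th percentile of signal had an r of 0.47 with centred Prdx2 (permutation p = 0.169, with a rho of 0.53 and permutation p = 0.123) and 0.34 with centred Gsta4 (permutation p = 0.346, with a rho of 0.15 and permutation p = 0.684). Without Control 9 and CIE 10 these were 0.47 (exact permutation p = 0.242) and 0.06 (exact permutation p = 0.891). The percentile was itself subtracted to centre both genes, so it enters both sides of these relations. Their p-values can therefore not show that a gene is unrelated to array brightness. Within slide 1 the r with GAPDH was 0.29 for Prdx2 and 0.03 for Gsta4, and that with the percentile was 0.25 and 0.53. Without Control 7 and CIE 8 the r with GAPDH was 0.35 for Prdx2 and -0.07 for Gsta4, and that with the percentile was 0.27 and 0.58. None of the 5 relations passed after adjustment (lowest adjusted p 0.577).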

How the data were processed

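Vesicles were separated by differential ultracentrifugation, about 3 µg of their total RNA was submitted, and it was amplified into Cy3-labelled cRNA, per the labels' protocols. Per the file headers, the scans were read by version 11.0.1.1 of Agilent's Feature Extraction program, and the processed intensity taken from the deposited files is linear and already corrected for background. A table the authors deposited for the same arrays was taken as log2 (rank correlation with the matching scanner values 0.990 to 0.999; every column has a median of 4.60); how it was normalized is not given in the sources used.

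Spots marked as outliers (4 of Gsta4, 0 of Prdx2) were left out and the rest averaged as log2. Arrays were centred on the 75th percentile of non-control probes. The comparison took probes that were well above background on 5 or more arrays. They were fitted with limma 3.58.1 (R 4.3.3) and Benjamini-Hochberg adjustment over 43084 probes at 0.05. The fit was also run on simulated data with independent noise and shifts far larger than the differences of Prdx2 and Gsta4. That run does not speak for small differences, nor for arrays that resemble each other by pair or slide. Single measures used exact permutation tests over every relabeling of 5 against 5, and correlations over 10 arrays 100000 permutations. Gene names come from a RefSeq table of GRCm38.p6, and since the array design uses mm9, no coordinates are given. Precision is limited by the number of arrays and also depends on the model. In the main fit, which has no block, the half-width of the 95% interval was 0.69 log2 units for Prdx2 and 0.49 for Gsta4. Named genes are both members, listed antioxidant genes with a named probe, and, for each member, the 3 most and 1 least correlated named genes; the least correlated gene for Gsta4 is not reported here. Members and lists were chosen with earlier results of these data known.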

Additional observations from a re-analysis of the deposited data

Results flagged for a closer look

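In groups of 5 arrays, 4 of 34 checked had 1 array far from the others, and that array was always CIE 8 or Control 7. The measures checked overlap, and they include the human GAPDH probe and genes picked by their r with Prdx2 or Gsta4. The count can therefore not be set against a chance rate of about 1 in 20. The log2 ratio of Prdx2 over Gsta4 was 2.60 on CIE 8, against at least 3.87 on the other CIE arrays. Human-GAPDH_5, a control probe for a human transcript, stood at 3.49 on CIE 8, where the next highest CIE array had 0.36. On Control 7 the same probe stood at 2.80, the next highest Control array having 0.47. Actb, the named gene least like Prdx2, was at 6.39 on Control 7, and the next highest Control array had 5.34. In the centred values of Prdx2 and of Gsta4 themselves, no array of either group stood apart in this way.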

How the results depend on the processing

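Over 24 alternatives each, neither Prdx2 nor Gsta4 passed, and limma called 0 probes in all of them, with 402 to 6389 at an unadjusted p under 0.05. The Prdx2 difference turned to -0.23 with no scaling and lay between -0.078 and 0.35 when single arrays were left out. The Gsta4 difference turned to -0.26 with no scaling and to -0.0495 both within slide 1 and when slide was a block. The correlation of both genes was 0.82 with no scaling, 0.75 within slide 1, 0.83 without Control 7 and CIE 8, and 0.0181 to 0.77 without single arrays. The wider Gsta4 spread in CIE was 0.19 with no scaling, 0.20 within slide 1 and 0.24 without Control 7 and CIE 8, all short of the threshold, and 0.083 to 0.27 without single arrays. The group difference of the Prdx2 over Gsta4 ratio, chosen after seeing the data, was 0.37 within slide 1, 0.23 without Control 7 and CIE 8, and -0.0878 to 0.32 without single arrays. The causes were not tested. The groups share no replicate number and the labels state no pairs. A block of odd and next even sample numbers changed no call at the adjusted threshold. It did give the largest count at an unadjusted limma p under 0.05, 6389 of 43084 probes against 921 in the main fit. The normexp setting used the median spot signal in place of the mean, which the files do not hold.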
